A study of Homo sapiens with 8 samples.

Results

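The genes described here are 10 genes of IL6 family signalling, out of 19970 protein-coding genes measured in the series. They are the ligand genes IL6, LIF, IL11 and OSM, the receptor genes IL6R, IL6ST, OSMR and LIFR, the transcription factor gene STAT3 and the feedback inhibitor gene SOCS3. The rule lists them by name and uses no measured value. For each gene, all ATAC-seq peaks in the gene body and 50 kb either side were taken from each of 8 deposited peak lists. Merging the peaks of the 8 lists where they overlapped gave 105 regions in these windows, of 69078 regions on chromosomes 1 to 22 and X. ATAC-seq uses a transposase that inserts sequencing adapters into accessible DNA, so a peak marks a stretch of open chromatin.

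The samples came from H1975 and HCC44, established human lung cancer cell lines, each cultured as 1 line in medium with serum. Each line was given either the solvent DMSO or ACBI1 for 96 h, with 2 replicates in each of the 4 groups. ACBI1 is a small molecule that directs the ATPases SMARCA2 and SMARCA4 and the subunit PBRM1 of the SWI/SNF chromatin remodelling complexes to degradation. The dose in the labels is 1 mM, and all 8 samples carry the genotype label WT. By its title, the series concerns SMARCA4 and immunity in lung cancer, and the comparison asks how accessible chromatin differs once these remodellers are targeted. The labels do not say whether replicates were separate cultures, so p-values measure only the spread between these samples, which may be technical.

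Cytokines of the IL6 family signal through receptor complexes that contain gp130, the product of IL6ST. Gp130 pairs with a ligand-binding receptor chain, associated JAK kinases are activated, and STAT3 is phosphorylated and moves to the nucleus. STAT3 activates SOCS3, whose product binds gp130 and JAK kinases and damps the signal. In lung cancer cells, IL6 and LIF are known as tumour-derived cytokines that act on the cells that make them and on immune cells nearby.

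Start sites and the sequence before them were available from RefSeq (GRCh38.p14) for 8 of the 10 genes, all except LIF and OSM. The 250 bases before the start are shown for 4 of these 8 genes. Those of IL6, IL11 and IL6ST each hold 1 match to a searched motif, and the match lay inside a peak in all 8 samples. That of SOCS3, before the first of its 2 starts, lies mostly outside its promoter peak. Before the second start, not shown, peaks covered 50 bases in H1975 ACBI1 replicate 2 and 68 in HCC44 ACBI1 replicate 1. They covered all 250 in the other samples. Capitals mark the motif match, sequences run 5′ to 3′ on the strand of the gene, and positions are counted back from the start, with −1 the base just before it.
IL6, chr7:22726950-22727199, plus strand: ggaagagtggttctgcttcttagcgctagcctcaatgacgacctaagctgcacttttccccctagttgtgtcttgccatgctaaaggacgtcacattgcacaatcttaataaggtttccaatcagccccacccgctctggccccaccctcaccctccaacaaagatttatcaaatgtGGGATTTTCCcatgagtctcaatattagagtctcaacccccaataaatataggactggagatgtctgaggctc
IL11, chr19:55370464-55370713, minus strand: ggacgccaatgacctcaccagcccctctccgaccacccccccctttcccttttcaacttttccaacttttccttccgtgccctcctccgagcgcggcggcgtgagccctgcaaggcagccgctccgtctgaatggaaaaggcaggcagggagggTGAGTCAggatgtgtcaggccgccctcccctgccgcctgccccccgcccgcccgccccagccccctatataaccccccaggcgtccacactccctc
IL6ST, chr5:55994964-55995213, minus strand: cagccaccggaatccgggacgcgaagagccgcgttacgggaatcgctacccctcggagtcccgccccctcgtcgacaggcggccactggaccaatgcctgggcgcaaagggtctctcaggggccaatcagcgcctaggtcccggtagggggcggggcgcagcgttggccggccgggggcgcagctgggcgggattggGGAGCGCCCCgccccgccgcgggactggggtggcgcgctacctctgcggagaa
SOCS3, chr17:78360926-78361175, minus strand: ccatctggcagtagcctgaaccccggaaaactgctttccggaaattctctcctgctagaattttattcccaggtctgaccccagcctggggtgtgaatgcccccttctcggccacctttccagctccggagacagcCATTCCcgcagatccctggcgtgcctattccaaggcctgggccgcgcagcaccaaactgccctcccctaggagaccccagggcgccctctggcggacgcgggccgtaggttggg

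In IL6 the capitals are an NF-kB motif at −73 to −64, and in IL6ST an NF-kB motif on the opposite strand at −53 to −44. In IL11 they are an AP-1 motif at −96 to −90, and in SOCS3 a TEAD motif on the opposite strand at −114 to −109. The motifs searched on both strands were AP-1 (TGANTCA), STAT (TTCNNNGAA), NF-kB by name, TEAD (GGAATG), CRE (TGACGTCA) and the TATA box (TATAAA). Of 22011 RefSeq promoters read over the same 250 bases, 11.3% held the NF-kB motif, 5.36% the AP-1 motif and 10.5% the TEAD motif. The shares were 5.93% for STAT, 2.0% for CRE and 9.02% for the TATA box. No searched motif was found before the starts of IL6R, OSMR and STAT3, which says only that those letters are not in that window. LIFR held a STAT and a TEAD match before its start at 38595405. Before its start at 38557467 it held a STAT match and TATA box matches on both strands. None of these LIFR matches lay inside a peak in any sample. The G and C content of the 250 bases was 47.6% for IL6, 67.2% for IL11, 73.6% for IL6ST and 62.8% at the first SOCS3 start, against a median of 62% over all promoters. IL6 thus had the lowest value of these 4.

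The deposited lists differed in length. Those of H1975 ran to 43525 and 41027 peaks after DMSO and to 27682 and 22133 after ACBI1. Those of HCC44 ran to 50347 and 49945 after DMSO and to 26313 and 24862 after ACBI1. The number of reads behind a list is unknown, and a missing peak is not a measurement of closed chromatin. In bulk samples, fewer cells with an open site and a weaker opening per cell cannot be told apart. The starts of the epithelial genes EPCAM, KRT8, KRT18 and KRT19 had a peak in all 8 samples and that of CDH1 in 7. The starts of PTPRC, CD79A, PECAM1, CDH5, TIE1, DCN and ALB, markers of white blood cells, endothelium, fibroblasts and liver, had a peak in none. SPI1, COL1A1 and APOA1 from the same marker lists had one in all 8 samples, CD3E in 3 and PDGFRB in 1, so a peak at a start does not by itself mark a cell type here.

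Around the 10 genes, the lists held fewer peaks with ACBI1 than with DMSO in both lines. The windows, 9 after joining those of LIF and OSM and 1374 kb in all, held 71 and 69 peaks in the H1975 DMSO samples and 52 and 40 in the ACBI1 samples. In HCC44 they held 87 and 84 with DMSO and 40 and 38 with ACBI1. The groups did not overlap in either line. The means in H1975 were 70.0 ± 1.41 and 46.0 ± 8.49 (SD, n = 2 each), 34.3% fewer, while the whole lists were 41.1% shorter. The means in HCC44 were 85.5 ± 2.12 and 39.0 ± 1.41 (SD, n = 2 each), 54.4% fewer, while the whole lists were 49.0% shorter. With each list limited to its 22133 strongest peaks by −log10 q (the −log10 of the authors' q-value), the length of the shortest list, the difference was much smaller. The mean was then 46.5 against 41.5 in H1975 and 41.5 against 35.5 in HCC44.

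By gene, 6 of the 10 held fewer peaks in each ACBI1 sample than in either DMSO sample of H1975: IL6, OSM, IL6ST, LIFR, STAT3 and SOCS3. Of all protein-coding genes with a peak in the window, 49.5% did so. In HCC44 all 10 held fewer, against 62.4% of all genes. None of the 10 held more in H1975 or in HCC44, against 1.65% and 2.03% of all genes. The median change of the 10 genes was −2 peaks in H1975 and −5.75 in HCC44, and over all genes with a peak it was −1 and −1.5. Long genes have longer windows, and this was not adjusted for. In windows of 10 kb either side, 2 genes held fewer in H1975, and at a fold enrichment of at least 5, 6 genes did in HCC44. The shares of all genes above do not apply to these settings, and none is given for them.

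**Figure D1:**
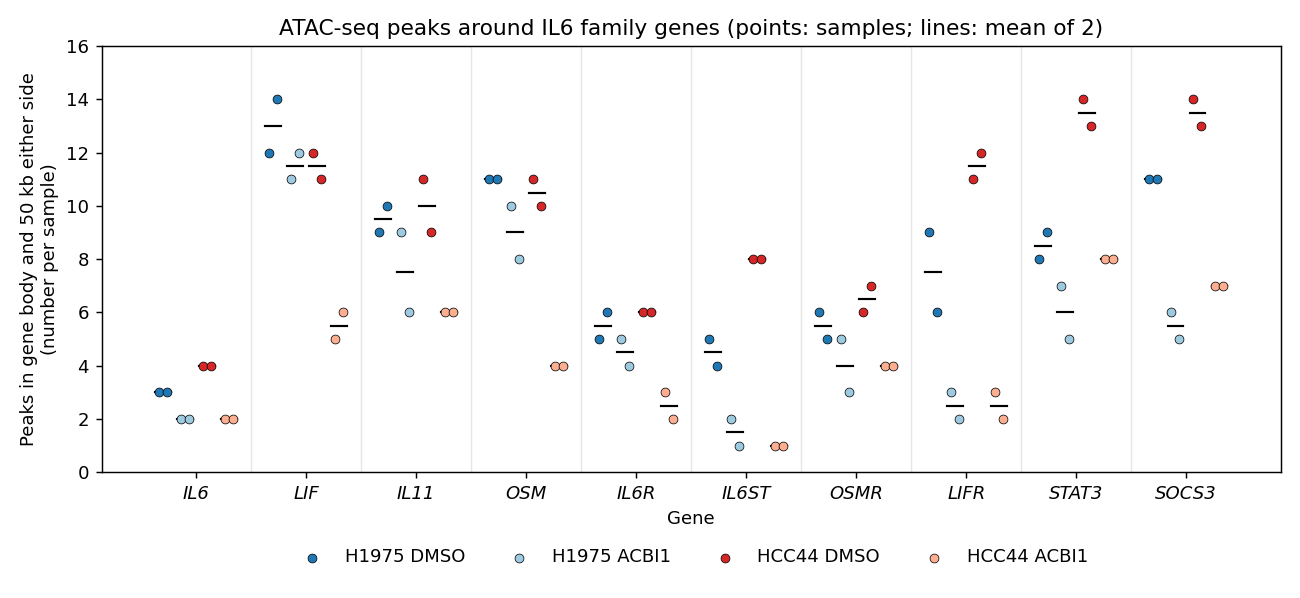
Number of peaks in the gene body and 50 kb either side (vertical axis) for each of the 10 genes (horizontal axis). Points are samples coloured by line and treatment, and lines are means of 2 samples. In HCC44 the ACBI1 points lie below the DMSO points for all 10 genes, and LIFR has the largest gap, from 11 and 12 peaks to 3 and 2.

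The change averaged over both lines was tested for each gene by exact permutation of the labels inside each line, two-sided. There are 36 arrangements, so the smallest possible p is 0.0556 and no gene can pass 0.05. The exact permutation test gave this smallest p for IL6 with a change of −1.5 peaks, OSM with −4.25, IL6ST with −5, LIFR with −7, STAT3 with −4 and SOCS3 with −6. The same exact test gave p = 0.111 for LIF with −3.75, IL11 with −3, IL6R with −2.25 and OSMR with −2. In the lists shortened to 22133 peaks, fewer genes were ordered this way. Those with fewer peaks were then IL11 and IL6ST in H1975, against 13.4% of all genes, and IL6R, IL6ST and LIFR in HCC44, against 15.1%. None of the 10 held more in either line, while 28.5% of all genes did in H1975 and 36% in HCC44.

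IL6ST was thus the only 1 of the 10 with fewer peaks in both lines both in the full and in the shortened lists. This joint rule was set after the values were seen, and the share of all genes that meet it is not given. In the shortened lists its window held 2 and 2 peaks in the DMSO samples of H1975 against 1 and 1 in the ACBI1 samples, and 4 and 5 against 1 and 1 in HCC44.

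Promoter peaks and distal peaks differed in how often they were listed again with ACBI1. A promoter region lay within 1 kb of a RefSeq start, or of either gene end where no start was given, and all other regions were distal. Of the 10 genes, 8 had a promoter peak in all 8 samples (IL6, IL11, IL6R, IL6ST, OSMR, LIFR, STAT3 and SOCS3), against 53.8% of all genes. Promoter peaks in all 4 DMSO samples were found for 9 genes, and 8 of these genes kept one in all 4 ACBI1 samples, against 94.5% of all such genes. OSM was the exception, and its call joins both gene ends, since no start was given for it. Its DMSO peaks lay at the lower end in H1975 and at the upper end in HCC44. Neither end had a peak in all 4 DMSO samples.

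A region is called lost in a line when it had a peak in each DMSO sample and in neither ACBI1 sample, retained when all 4 did, and gained when both ACBI1 samples and neither DMSO sample did. Among promoter regions in the windows, 1 of 18 was lost in H1975 (3.31% of all promoter regions) and 2 of 19 in HCC44 (6.49% of all). The region lost in H1975 was at STAT5A, and those lost in HCC44 were at the upper end of OSM and at IL31RA.

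Distal regions were lost more often than promoter regions in both lines. In H1975, 13 of the 40 distal regions that both DMSO samples held were lost, or 32.5%, against 51.1% of all distal regions. Of the others, 18 were retained and 9 had a peak in 1 ACBI1 sample. In HCC44, 42 of 61 were lost, or 68.9%, against 63.9% of all, with 17 retained. The H1975 count was 21 without DMSO replicate 2 and 22 without ACBI1 replicate 1, and the share was then 42% and 55%. The share over all distal regions under the same omissions was 56.4% and 64.7%. At a fold enrichment of at least 5, 55.6% were lost in H1975 against 56.3% of all, so the gap to the background was no longer seen. In HCC44 it was 79.2% against 76.8%. In the shortened lists the lost distal regions were 6 of 23 in H1975, or 26.1% against 37.6% of all, and 11 of 20 in HCC44, or 55% against 59.6%.

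**Figure D2:**
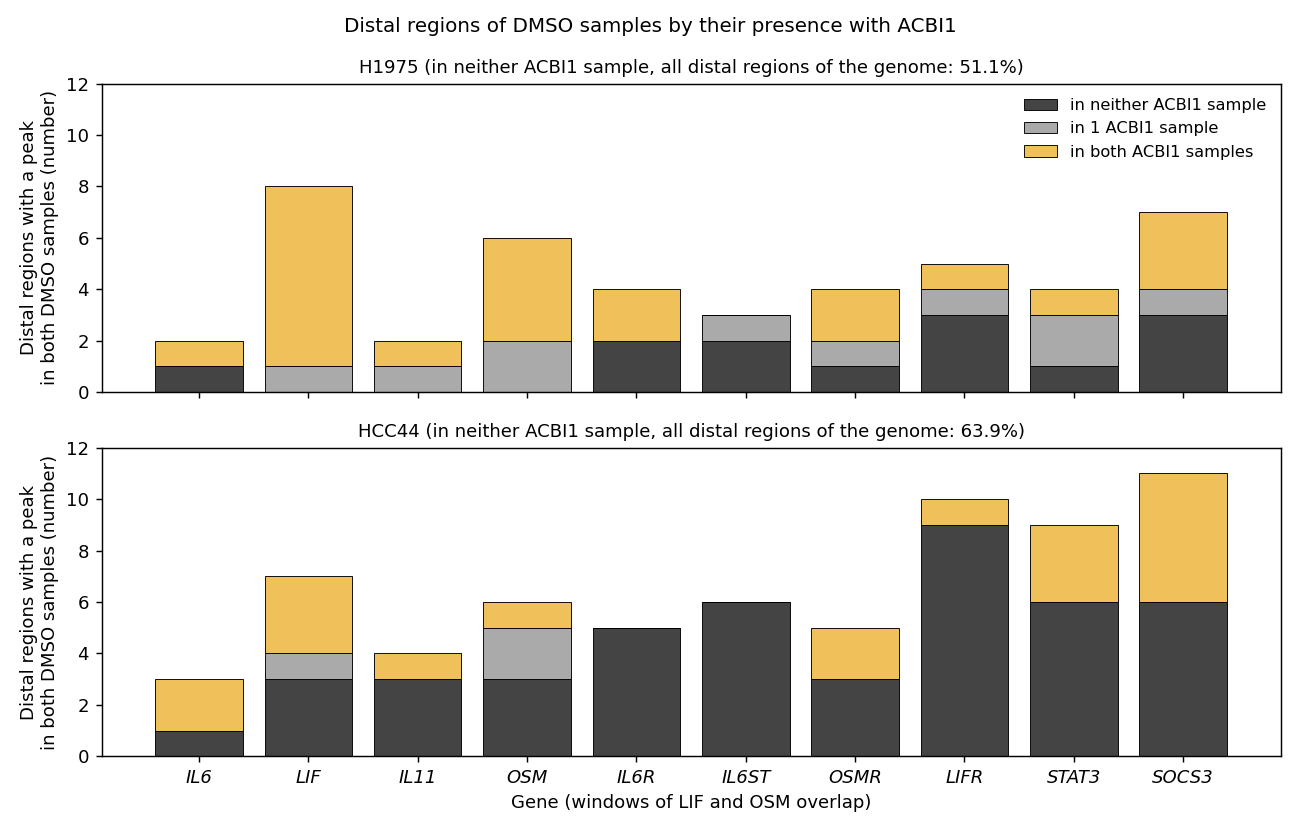
Stacked bars count the distal regions that both DMSO samples of a line held (vertical axis) for each gene (horizontal axis), split by how many ACBI1 samples held a peak there. In HCC44 all 6 such regions of IL6ST and all 5 of IL6R had none with ACBI1, while in H1975 none of the 8 of LIF was without one.

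The counts can be split into ligand and receptor genes, beside 51.1% of all distal regions lost in H1975 and 63.9% in HCC44. In H1975, 1 of 13 distal regions around the ligand genes was lost, or 7.69%, against 8 of 16 around the receptor genes, or 50%, close to the background. In HCC44 the counts were 7 of 15, or 46.7%, and 23 of 26, or 88.5%. Most of the ligand regions lay in the overlapping windows of LIF and OSM. By ligand gene, the lost regions in H1975 were 1 of 2 for IL6, 0 of 8 for LIF, 0 of 2 for IL11 and 0 of 6 for OSM. In HCC44 they were 1 of 3, 3 of 7, 3 of 4 and 3 of 6. The difference between ligands and receptors was not tested, since regions of 1 gene are not replicates.

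The same regions can be set against each other in the 2 lines. Of 36 distal regions that all 4 DMSO samples held, 11 had none in any ACBI1 sample, against 38.5% of all such regions. Another 11, or 30.6%, had a peak in all 8 samples, against 28.5% of all. In 9 the region was lost in HCC44 and not in H1975, or 25%, against 18.6% of all. The reverse held for 1, at SOCS3, against 4.59% of all. The 11 regions in all 4 DMSO samples and no ACBI1 sample can be set beside all distal regions in all 4 DMSO samples. They were 3 of 5 around LIFR, 2 of 4 around IL6R, 2 of 3 around IL6ST and 2 of 7 around SOCS3. Around OSMR and around STAT3 they were 1 of 4. None lay around a ligand gene, but few could: IL6 had 1 distal region in all 4 DMSO samples and IL11 had 1. LIF had 6 and OSM 5, in windows that overlap.

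Some regions were seen in 1 line only. HCC44 had 19 distal regions that both its DMSO samples and no H1975 sample held, and 16 of these were lost with ACBI1, or 84.2%, against 78.8% of all such regions. H1975 had 3 such regions, of which 1 was lost, against 72.9% of all. With DMSO, 5 genes held more peaks in both HCC44 samples than in both H1975 samples (IL6, IL6ST, LIFR, STAT3 and SOCS3), against 36.9% of all genes. None held fewer, against 17.1% of all genes. With ACBI1, STAT3 and SOCS3 held more in HCC44, 2 of the 10 against 18.4% of all genes. LIF, OSM and IL6R held fewer in HCC44 with ACBI1, 3 of the 10 against 17.0% of all genes. The genes with more peaks in HCC44 with ACBI1 were 0 in place of 2 in the shortened lists, in windows of 10 kb, at a −log10 q of at least 20 and at a fold enrichment of at least 5. Those with DMSO were 2 in place of 5 in the shortened lists, 3 in windows of 10 kb and 1 at a fold enrichment of at least 5. Shares of all genes under these settings are not given, so these counts describe the 10 genes only.

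Gains were few. Of the distal regions with a peak in both ACBI1 samples, 2 of 20 were gained in H1975, against 5.57% of all, and 3 of 20 in HCC44, against 10.4%. In both lines these included a region beside IL6R and a region inside STAT3, which had a peak in all 4 ACBI1 samples and in no DMSO sample. They were 2 of the 13 distal regions in all 4 ACBI1 samples, against 1.49% of all such regions. The remaining 1 in HCC44 was upstream of OSMR.

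Strong distal peaks can be followed by their rank. Within a list, peaks were ranked by the −log10 q that the authors deposited, and the rank is given as a percent of the list, so that a value near 0 is among the strongest. Lists of different length rank differently, and ranks are set side by side here only to describe a peak. In H1975, 5 distal regions had a mean DMSO rank within the strongest 10%, and none was lost, against 2.15% of all such regions. In HCC44, 2 of 4 were lost, against 30.2% of all. Both were inside receptor genes, IL6R and OSMR.

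IL6 (chr7:22727200-22731998, plus strand) encodes interleukin 6, the founding cytokine of the family. Its window held 3 and 3 peaks in H1975 with DMSO and 2 and 2 with ACBI1. In HCC44 it held 4 and 4 with DMSO and 2 and 2 with ACBI1. The groups did not overlap in either line, and replicates held equal numbers. The promoter region, chr7:22726188-22728664, was listed in all 8 samples. It ranked at 8.01% and 18.3% in H1975 with DMSO, 37.1% and 65.6% with ACBI1, 9.75% and 7.02% in HCC44 with DMSO, and 58.2% and 51.4% with ACBI1.

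A distal region 8.89 kb upstream of the IL6 start, chr7:22717877-22718737, was also listed in all 8 samples. Its ranks were 6.78% and 7.58% in H1975 with DMSO, 46.9% and 59.7% with ACBI1, 4.85% and 4.03% in HCC44 with DMSO, and 76.8% and 82.2% with ACBI1. Together with the promoter it made up all IL6 peaks inside the window with ACBI1. The other distal regions of IL6 were seen in 1 line. A region near the end of the gene (chr7:22731192-22731556) was listed in the DMSO samples of H1975 only. A region 30.3 kb upstream (chr7:22696585-22697130) was listed in the DMSO samples of HCC44 only. A region 55.0 kb downstream of the start (chr7:22781556-22782890) was listed in all 4 HCC44 samples, and its ACBI1 peaks lay beyond the edge of the window, so they are not in the peak counts.

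LIF (chr22:30240453-30246759), which encodes leukemia inhibitory factor, and OSM (chr22:30262829-30266851), which encodes oncostatin M, are neighbours, and their windows share many peaks. The LIF window held 12 and 14 peaks in H1975 with DMSO and 11 and 12 with ACBI1. In HCC44 it held 12 and 11 with DMSO and 5 and 6 with ACBI1. The H1975 groups met at 12 and the HCC44 groups did not overlap. For OSM the counts were 11 and 11 with DMSO and 10 and 8 with ACBI1 in H1975, and 11 and 10 against 4 and 4 in HCC44. In the shortened lists the mean change over both lines was instead 1 peak more with ACBI1 for LIF and for OSM. HCC44 DMSO replicate 2 then held 1 peak around LIF and 0 around OSM, and replicate 1 held 6 and 4.

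No list held a peak inside LIF. At its lower end, a region 0.604 kb outside the gene, chr22:30238669-30239849, had no peak with DMSO. It had a peak in 1 H1975 ACBI1 sample at rank 92.9% and in both HCC44 ACBI1 samples at 76.9% and 77.9%. It was thus among the weaker peaks wherever it was listed. At OSM the peaks listed in the 2 lines lay at different ends of the gene. A region at the lower end, chr22:30262989-30263598, was listed in all 4 H1975 samples and in no HCC44 sample. A region at the upper end, chr22:30265915-30267282, was listed in both HCC44 DMSO samples at ranks 80.0% and 96.0%, and in no other sample.

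Around LIF, 3 distal regions were listed in all 8 samples. The strongest, chr22:30195470-30197127 inside HORMAD2, ranked at 2.60% and 3.76% in H1975 with DMSO and 7.92% and 24.7% with ACBI1. In HCC44 it ranked at 11.8% and 12.9% with DMSO and 30.0% and 39.3% with ACBI1. The second, chr22:30205249-30207264, was also inside HORMAD2. The third, chr22:30255938-30258334, lies between LIF and OSM and is in the windows of both. It ranked between 3.83% and 22.7% in the H1975 samples and between 43.1% and 68.2% in the HCC44 samples. The lines also differed at chr22:30210409-30210823 and chr22:30235691-30236195, which all 4 H1975 samples and no HCC44 sample held. In H1975 none of the 8 distal LIF regions was lost, and in HCC44 3 of 7 were.

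IL11 (chr19:55364382-55370463, minus strand) encodes interleukin 11, which signals through its own receptor chain and gp130. Its window held 9 and 10 peaks in H1975 with DMSO and 9 and 6 with ACBI1, and 11 and 9 against 6 and 6 in HCC44. The groups met at 9 in H1975 and did not overlap in HCC44. The window is rich in other promoters: in H1975, 4 of the peaks in each sample lay at the starts of other genes. Those at UBE2S, which encodes a ubiquitin-conjugating enzyme, and at KMT5C, which encodes a histone methyltransferase, were the strongest. They ranked between 0.0585% and 2.97% and between 0.138% and 6.77% in the 8 samples.

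The IL11 promoter region, chr19:55368915-55370939, was listed in all 8 samples. It ranked at 9.07% and 14.2% in H1975 with DMSO and 49.1% and 60.1% with ACBI1. In HCC44 it ranked at 37.3% and 31.0% with DMSO and 88.3% and 79.9% with ACBI1. The peaks covered all 250 bases of the sequence shown above in both H1975 DMSO and both HCC44 DMSO samples, and 146 to 250 bases in the ACBI1 samples. The only distal region of IL11 in all 8 samples was chr19:55418132-55418730, 48.0 kb upstream. Regions inside GARIN5B (chr19:55359057-55359751) and inside RPL28 (chr19:55391071-55391908) were listed in the DMSO samples of HCC44 only.

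**Figure D3:**
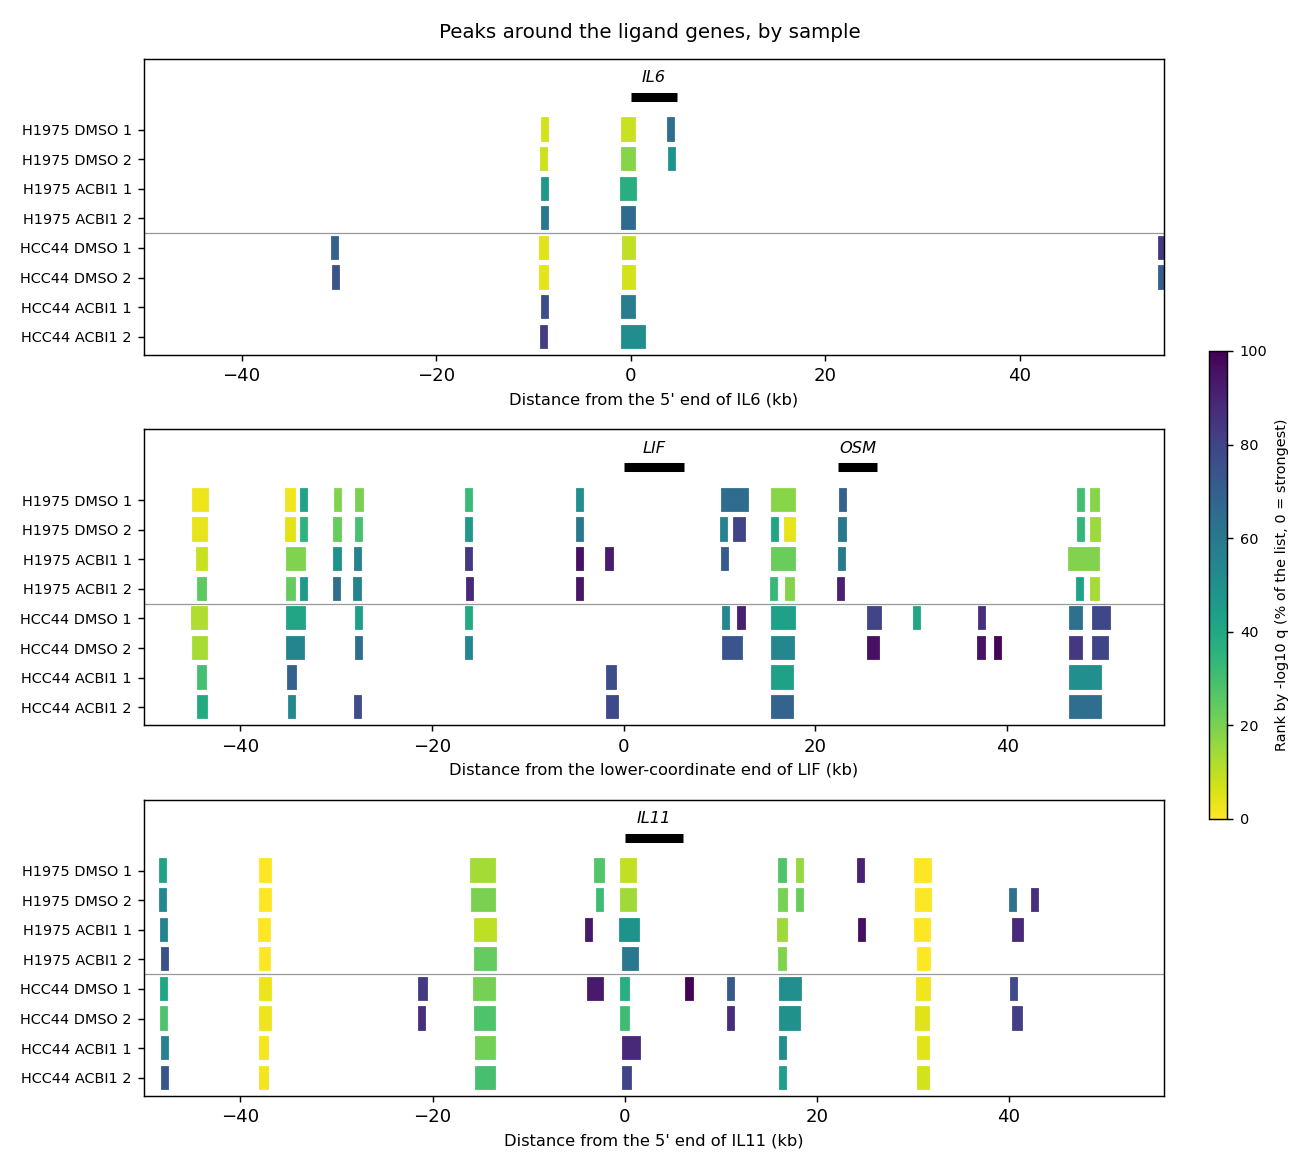
Peaks of each sample (rows) around IL6, around LIF and OSM, and around IL11, placed to scale by distance in kb from the 5' end of the gene, or from the lower end of LIF (horizontal axis). Colour gives the rank by −log10 q as a percent of the list, with 0 the strongest, black bars are the genes, and narrow peaks are drawn at a fixed smallest width. The promoter and the peak 8.89 kb upstream of IL6 appear in all 8 rows, and all 8 rows also hold the peak between LIF and OSM.

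IL6R (chr1:154405343-154469450, plus strand) encodes the ligand-binding receptor for interleukin 6. Its window held 5 and 6 peaks in H1975 with DMSO and 5 and 4 with ACBI1, and 6 and 6 against 3 and 2 in HCC44. The groups met at 5 in H1975 and did not overlap in HCC44. The promoter region, chr1:154404843-154406711, was the strongest promoter of the 10 genes in HCC44 with DMSO. Its ranks were 0.450% and 1.58% in H1975 with DMSO, 5.74% and 17.9% with ACBI1, 0.304% and 0.322% in HCC44 with DMSO, and 4.34% and 7.43% with ACBI1.

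Inside IL6R, the regions at chr1:154418167-154420458 and chr1:154431455-154433638 were retained in H1975 and lost in HCC44. The second had ranked at 2.97% and 4.78% in the HCC44 DMSO samples. In H1975 it ranked at 13.7% and 8.44% with DMSO and 59.1% and 89.8% with ACBI1. A further region inside the gene, chr1:154444883-154446426, and 1 beyond it inside SHE, chr1:154484230-154484731, were listed in all 4 DMSO samples and in no ACBI1 sample. The region chr1:154463081-154463906 inside IL6R was listed in the DMSO samples of HCC44 only. All 5 distal regions of HCC44 DMSO samples were lost, and 2 of 4 in H1975.

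The region gained beside IL6R, chr1:154479884-154480326, lies inside SHE, which encodes an SH2 domain adaptor, 10.4 kb past the end of IL6R. It ranked at 47.8% and 52.5% in the H1975 ACBI1 samples and at 30.8% and 36.7% in the HCC44 ACBI1 samples. None of the 4 DMSO samples listed it. It was thus a mid-ranking peak in all 4 lists that held it, and the authors' fold enrichment there was 6.52, 8.10, 6.08 and 5.07.

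IL6ST (chr5:55935095-55994963, minus strand) encodes gp130, the signalling chain shared by the family. Its window held 5 and 4 peaks in H1975 with DMSO and 2 and 1 with ACBI1. In HCC44 it held 8 and 8 with DMSO and 1 and 1 with ACBI1. The groups did not overlap in either line, and in 3 of the 4 ACBI1 samples the promoter peak was the only one left. The promoter region, chr5:55994541-55995550, ranked at 4.43% and 3.20% in H1975 with DMSO and 9.55% and 15.8% with ACBI1. In HCC44 it ranked at 6.16% and 11.5% with DMSO and 9.54% and 6.79% with ACBI1. All 250 bases shown above lay inside the peak in every sample.

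All 6 distal regions of IL6ST that both HCC44 DMSO samples held were lost. They included chr5:56011757-56012583, 17.2 kb upstream, and chr5:56026889-56027270, 32.1 kb upstream, which were listed in all 4 DMSO samples and in no ACBI1 sample. These ranked at 84.4% and 90.3%, and 78.1% and 82.1%, in the H1975 DMSO samples, against 33.8% and 33.7%, and 55.3% and 29.0%, in the HCC44 DMSO samples. They were thus among the weak peaks of H1975 and mid-ranking in HCC44. A region inside the gene 16.7 kb from the start, chr5:55978041-55978538, ranked at 19.2% and 9.49% in the HCC44 DMSO samples and was lost there. In H1975 it was listed in both DMSO samples and in 1 ACBI1 sample, at 80.5%. The HCC44 DMSO samples alone also held chr5:55936206-55936814 inside IL6ST and chr5:55902837-55903969 inside IL31RA, which encodes the interleukin 31 receptor.

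OSMR (chr5:38846012-38945579, plus strand) encodes the receptor chain for oncostatin M. Its window held 6 and 5 peaks in H1975 with DMSO and 5 and 3 with ACBI1, and 6 and 7 against 4 and 4 in HCC44. The groups met at 5 in H1975 and did not overlap in HCC44. The promoter region, chr5:38844992-38847500, ranked at 9.54% and 15.5% in H1975 with DMSO and 26.8% and 33.0% with ACBI1. In HCC44 it ranked at 7.55% and 11.7% with DMSO and 25.8% and 23.8% with ACBI1. It was present in all 8 samples.

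Inside OSMR, the region 26.1 kb from the start, chr5:38871674-38872570, was listed in all 8 samples. It ranked at 4.06% and 5.70% in H1975 with DMSO, 15.8% and 30.6% with ACBI1, 1.03% and 3.86% in HCC44 with DMSO, and 26.5% and 48.5% with ACBI1. It was thus stronger in rank than the promoter of the same gene in all 4 DMSO samples. The region 8.13 kb from the start, chr5:38853868-38854418, had ranks of 8.92% and 3.56% in the HCC44 DMSO samples and no peak with ACBI1. In H1975 it was retained, at 35.6% and 26.0% with DMSO and 65.4% and 88.7% with ACBI1. Upstream, chr5:38830529-38831893 was listed in all 4 DMSO samples and in no ACBI1 sample. The reverse came close at chr5:38809534-38810050, 36.2 kb upstream, with a peak in both HCC44 ACBI1 samples, in 1 of H1975 and in no DMSO sample. A region 76.0 kb into the gene, chr5:38921711-38922383, was listed in all 4 HCC44 samples and in none of H1975.

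LIFR (chr5:38474668-38608403, minus strand) encodes the receptor chain for leukemia inhibitory factor. Its window held 9 and 6 peaks in H1975 with DMSO and 3 and 2 with ACBI1. In HCC44 it held 11 and 12 with DMSO and 3 and 2 with ACBI1. This was the largest difference of the 10 genes in HCC44, and the groups did not overlap in either line. RefSeq gives 3 starts for LIFR, and the promoter peak, chr5:38556037-38557446, covers the inner start at 38556646 and ends just short of the inner start at 38557467. It was listed in all 8 samples at ranks between 23.2% and 38.4%. The outer start at 38595405 had no peak in any sample.

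Distal LIFR regions were lost in 3 of 5 cases in H1975 and in 9 of 10 in HCC44. Those in all 4 DMSO samples and no ACBI1 sample were chr5:38468261-38468595 beyond the end of the gene, and chr5:38598842-38599286 and chr5:38601703-38602274 inside it, upstream of the outer start. The first of them had DMSO ranks of 27.2% and 26.8% for H1975 and 13.7% and 17.8% for HCC44. The 1 distal region in all 8 samples was chr5:38441507-38442021 inside EGFLAM, which encodes a matrix protein, and its ranks lay between 34.4% and 56.4%. The DMSO samples of HCC44 alone held chr5:38607558-38608383, at the 5′ end of the gene as the gene table draws it, chr5:38576489-38576843 inside the gene and chr5:38426532-38427521 inside EGFLAM.

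**Figure D4:**
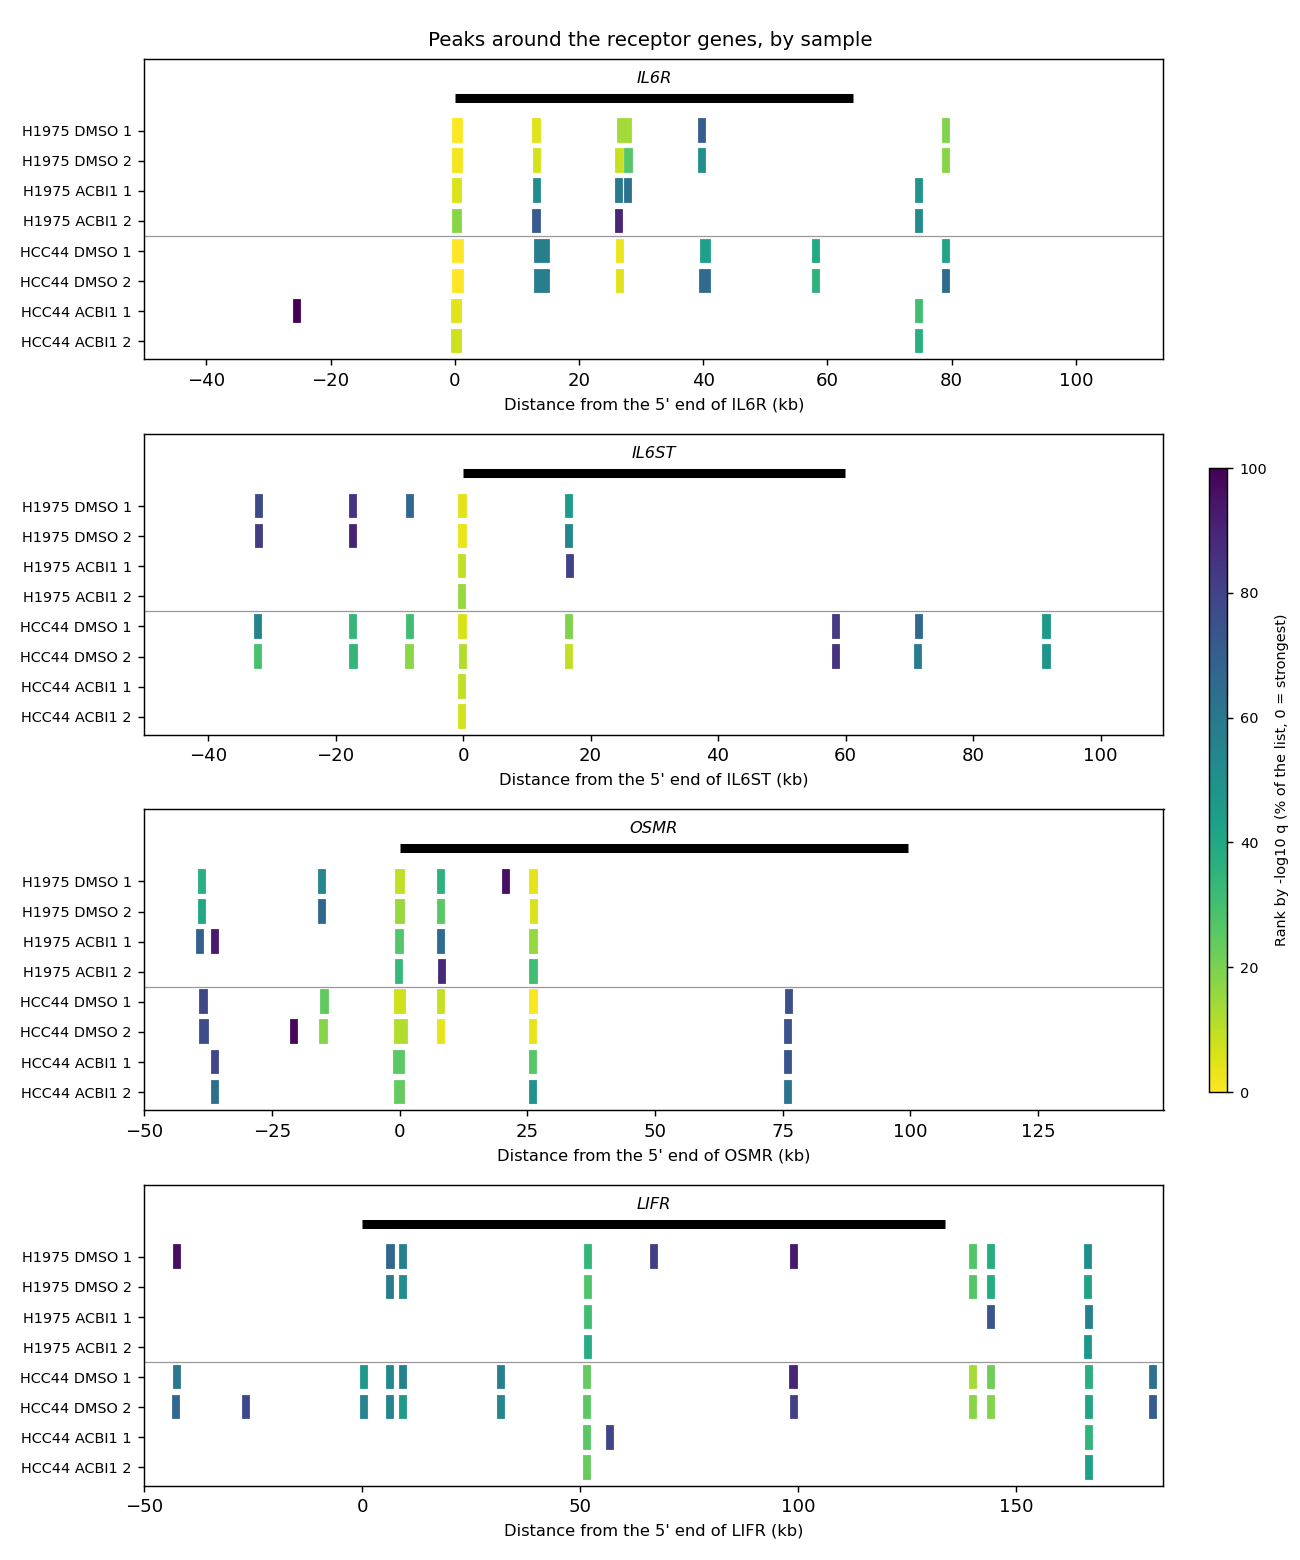
Peaks of each sample (rows) around IL6R, IL6ST, OSMR and LIFR, placed to scale by distance in kb from the 5' end of the gene (horizontal axis). Colour gives the rank by −log10 q as a percent of the list, with 0 the strongest, black bars are the genes, and narrow peaks are drawn at a fixed smallest width. Around IL6ST both HCC44 ACBI1 rows hold the promoter peak alone, while the HCC44 DMSO rows hold 8 peaks each.

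STAT3 (chr17:42313324-42388442, minus strand) encodes the main transcription factor of the pathway. Its window held 8 and 9 peaks in H1975 with DMSO and 7 and 5 with ACBI1, and 14 and 13 against 8 and 8 in HCC44. The groups did not overlap in either line. In the shortened lists the mean change over both lines was 0. The promoter region, chr17:42387749-42389226, ranked at 8.66% and 10.9% in H1975 with DMSO and 13.1% and 12.1% with ACBI1. In HCC44 it ranked at 0.814% and 4.10% with DMSO and 8.28% and 10.2% with ACBI1, so all 8 values lay in the strongest part of their lists.

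In the STAT3 window, the distal region chr17:42409503-42410260 inside CAVIN1, 21.4 kb upstream of the start, was listed in all 4 DMSO samples and in no ACBI1 sample. Its DMSO ranks were 31.4% and 48.9% for H1975 and 18.4% and 12.4% for HCC44. The distal region in all 8 samples was chr17:42428258-42428865, 40.1 kb upstream. The region gained in both lines, chr17:42322883-42323771, lies inside STAT3, 65.1 kb from its start. It ranked at 64.7% and 66.3% in the H1975 ACBI1 samples and 46.5% and 38.5% in the HCC44 ACBI1 samples, and no DMSO sample listed it. Its neighbour chr17:42325131-42326156 was listed in all 4 DMSO samples, in 1 H1975 ACBI1 sample and in no HCC44 ACBI1 sample. The HCC44 samples also held chr17:42329106-42329877 inside the gene, retained with ACBI1 and not listed in H1975, and chr17:42361950-42362496 and chr17:42342672-42343069, listed with DMSO only.

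SOCS3 (chr17:78356778-78360925, minus strand) encodes the feedback inhibitor that binds gp130 and JAK kinases. Its window held 11 and 11 peaks in H1975 with DMSO and 6 and 5 with ACBI1. In HCC44 it held 14 and 13 with DMSO and 7 and 7 with ACBI1. The groups did not overlap in either line. In the shortened lists the counts overlapped in both lines, at 4 and 5 against 5 and 5 in H1975 and 8 and 5 against 6 and 5 in HCC44. The promoter region, chr17:78359555-78361029, was listed in all 8 samples, at ranks between 21.4% and 41.2%. Its peaks extended over 61 to 104 of the 250 bases before the first start that are shown above, and the TEAD match lay outside the peak in all 8 samples.

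SOCS3, like LIF, had 3 distal regions in all 8 samples. They were chr17:78351689-78353794, chr17:78341773-78344182 and chr17:78313812-78316400, all past the end of the gene. The first ranked at 47.1% and 31.9% in H1975 with DMSO, 33.9% and 43.6% with ACBI1, 18.1% and 23.1% in HCC44 with DMSO, and 31.8% and 32.0% with ACBI1. The regions in all 4 DMSO samples and no ACBI1 sample were chr17:78384039-78384566 and chr17:78390248-78390815, both upstream of SOCS3 and inside PGS1. The region chr17:78329393-78331024 was lost in H1975, where it ranked at 85.5% and 81.1% with DMSO, and retained in HCC44. The HCC44 DMSO samples alone held chr17:78337262-78337807, chr17:78324816-78325539 and chr17:78307999-78308600, which ranked between 34.0% and 99.7%.

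**Figure D5:**
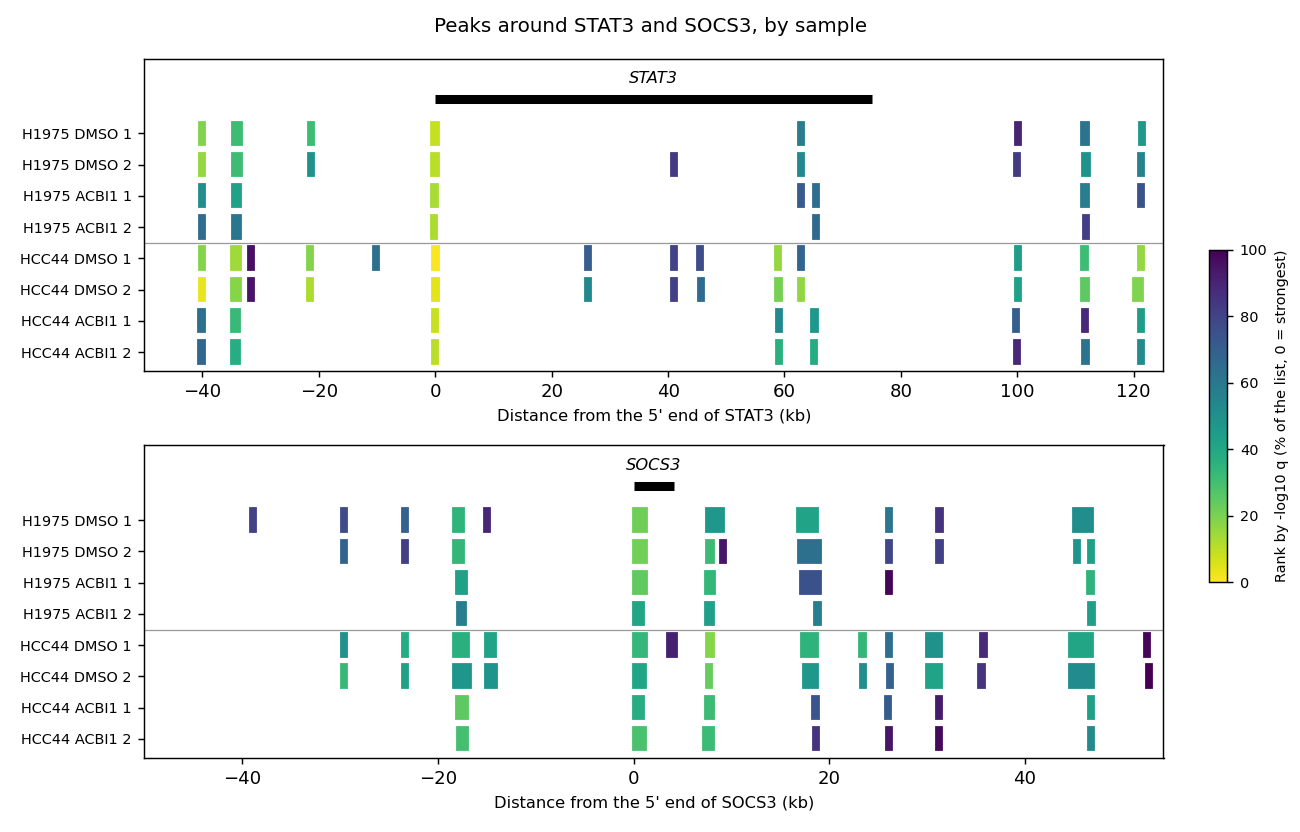
Peaks of each sample (rows) around STAT3 and SOCS3, placed to scale by distance in kb from the 5' end of the gene (horizontal axis). Colour gives the rank by −log10 q as a percent of the list, with 0 the strongest, black bars are the genes, and narrow peaks are drawn at a fixed smallest width. The peak 65.1 kb into STAT3 appears in the 4 ACBI1 rows only, and the promoter peaks of both genes appear in all 8 rows.

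Differences in the size of the change between the lines were not tested. The number of peaks differed more with treatment in HCC44 than in H1975 for all 10 genes. For IL6 this rests on the edge of the window, past which the HCC44 ACBI1 peaks of 1 retained region lay, and 1 distal region was lost in each line. The HCC44 change minus the H1975 change ranged from −1 for IL6, OSMR and SOCS3 to −4.5 for LIF and OSM. Beside this stood a pooled SD between replicates of 0.866 for OSMR, 0.5 for SOCS3, 0.935 for LIF and 0.791 for OSM. The whole lists were also shortened more in HCC44.

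Another 24 genes of the pathway were counted in the same way. Fewer peaks with ACBI1 in each replicate were found for 8 of the 24 in H1975 and for 14 in HCC44, with 49.5% and 62.4% of all genes as background. More peaks were found for 1 in each line. Their median change was −0.5 peaks in H1975 and −1.5 in HCC44. Among 7 further ligands and soluble partners, 2 held fewer in H1975 and 4 in HCC44. Among 4 further receptors the count was 1 in each line, and among the kinases JAK1, JAK2 and TYK2 it was 1 in each line, JAK1. Among 5 inhibitors and phosphatases it was 1 in H1975, CISH, and 4 in HCC44. Among 5 target genes of STAT3 it was 3 in H1975 and 4 in HCC44.

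JAK1, a kinase that binds gp130, had 8 and 9 peaks in H1975 with DMSO and 7 and 6 with ACBI1, and 10 and 11 against 8 and 8 in HCC44. JAK2 had 1 peak in every sample. JUNB, a transcription factor gene counted here as a STAT3 target, was the gene with more peaks in H1975, at 15 and 14 with DMSO and 16 and 16 with ACBI1. In HCC44 it had fewer, at 14 and 14 against 13 and 12. EBI3, which encodes a subunit of interleukin 27, was the gene with more peaks in HCC44, at 7 and 6 with DMSO and 8 and 8 with ACBI1. In H1975 its groups overlapped, at 7 and 7 against 8 and 6.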

How the data were processed

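The authors deposited 1 ATAC-seq peak list per sample, 8 in all, so the calls were made for each sample and replicates were not pooled. BWA and hg38 are named in the submitters' processing notes. The peak caller, its threshold and the read numbers are not given in the sources used here. The lists have no header and follow the 9 columns of a broadPeak file. The deposited fold enrichment of a peak is the authors' own ratio over the background of its sample. The authors' p-value and q-value were deposited as −log10 values, and the lowest −log10 q in a list was 10.0 to 10.2. The deposited score is 10 times the −log10 q and was not used. Values of a peak served only to rank or filter peaks within its list, and no counting interval was possible.

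Gene positions and starts came from RefSeq tables (GRCh38.p14). LIF and OSM have no entry in the promoter table, so either gene end was used. Peaks overlapping a window by at least 1 bp were counted on chromosomes 1 to 22 and X. Groups were compared per gene by exact permutation over samples, two-sided, with 36 arrangements. Lists, members and markers were chosen with earlier results of these data known. All 10 genes are named. The named regions of a gene are its promoter and up to 3 each of those in all 4 DMSO and no ACBI1 sample, in all 8 samples, gained, or in both DMSO samples of 1 line and no sample of the other, by mean rank. Other regions, and JAK1, JAK2, CISH, IL31RA, JUNB and EBI3, were named after their values were seen. Alternatives were a −log10 q of at least 20, a fold enrichment of at least 5, 22133 peaks per list, joining at 1200 bp, windows of 10 and 100 kb, promoter windows of 250 bp and 2.5 kb, merging within each line, a replicate block, ranks by fold enrichment, and leaving out each sample. Python 3.11.15, numpy 2.4.6, pandas 2.3.3, scipy 1.17.1 and matplotlib 3.10.9 were used, and the functions were tested on simulated data.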

Additional observations from a re-analysis of the deposited data

How the results depend on the processing

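All 10 genes had fewer peaks with ACBI1 on average over both lines under each setting tried, except in 4 of 70 values: LIF and OSM had 1 peak more and STAT3 a change of 0 with 22133 peaks per list, and IL11 a change of 0 at a fold enrichment of at least 5. These 70 values include those of the replicate block, which repeat the main value of each gene and could not differ. The mean change around all 10 genes was −24 peaks in H1975 and −46.5 in HCC44. It was −5 and −6 with equal lists, −17.5 and −28 at a fold enrichment of at least 5, −8 and −21 in windows of 10 kb, and in HCC44 −42.5 at a −log10 q of at least 20 and −68 in windows of 100 kb. Genes with fewer peaks in H1975 were 2 with equal lists and 2 in windows of 10 kb, and in HCC44 3 with equal lists and 6 at a fold enrichment of at least 5. Distal regions lost in H1975 were 6 with equal lists and 5 in windows of 10 kb, and in HCC44 11, 20 and, at a fold enrichment of at least 5, 19. At that minimum the share lost in H1975 was 55.6%, and no gene kept a promoter peak in all 4 HCC44 samples (0, against 8). Genes with more peaks in HCC44 with DMSO were 1 at that minimum, 2 with equal lists and 3 in windows of 10 kb. With ACBI1 they were 0 under each of these and at a −log10 q of at least 20. Most of these gene counts have no share of all genes at the same setting beside them, so they describe the 10 genes only. The causes of the shifts between settings were not tested. The median rank of the promoter peaks was taken in each sample and averaged over the replicates of a group. Ranked by fold enrichment in place of −log10 q, it was 58.0% and 54.8% in H1975 with DMSO and ACBI1 and 74.7% and 65.6% in HCC44. By −log10 q it was 12.3% and 32.6%, and 10.7% and 25.0%. By these medians, promoter peaks ranked as stronger by q than by fold enrichment in each group, and were nearest the strong end by q with DMSO. In HCC44 the medians include OSM with DMSO only and LIF with ACBI1 only.

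Leaving out 1 sample at a time, the change around the genes ranged from −30 to −18 (H1975) and −48 to −45 (HCC44). Genes with fewer peaks ranged from 6 to 9 in H1975 and stayed at 10 in HCC44, again with no share of all genes beside them. Distal regions lost numbered 13 to 22 (H1975) and 42 to 46 (HCC44), and their share was 32.5% to 55% for H1975. With a replicate block, 16 arrangements allow a smallest exact permutation p of 0.125, which 8 genes reached, while IL11 and IL6R gave 0.25. Deviations of same-numbered samples correlated at 0.113 in H1975 and 0.0455 in HCC44 across 19970 genes, which are not independent. Sample titles of 1 replicate number also share a prefix, and the labels do not say what it marks, so the numbers were not taken as pairs. The replicate block alters only which labels are exchanged. The mean changes of −24 peaks in H1975 and −46.5 in HCC44 are therefore the same by construction. The unknown read depth limits every count of missing peaks.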
